A study of Mus musculus with 24 samples.

Results

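The transcription factor genes that mark ventral interneurons of the neural tube were followed in sorted cultures of mouse embryonic stem cells (mESCs) patterned to motor neurons. The members were chosen by name from 22889 gene entries: *Evx1* and *Evx2* for V0 interneurons, *Sox14* for V2a interneurons, *Gata2*, *Gata3* and *Tal1* for V2b interneurons, and *Sim1* for V3 interneurons. All 7 were in the table, and the rule names the genes without a threshold on their values. The cells were sorted on a green fluorescent protein (GFP) reporter, and polyadenylated RNA of the GFP+ and GFP− fractions was sequenced in 24 samples.

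The ventral neural tube is divided by Sonic hedgehog signaling into progenitor domains, each of which gives rise to motor neurons or to one class of ventral interneurons. The homeodomain factors Evx1 and Evx2 mark a part of the commissural V0 neurons. V2 progenitors split into excitatory V2a neurons, of which Sox14 labels a part, and inhibitory V2b neurons, which need Gata2, Gata3 and Tal1. Sim1, a bHLH-PAS factor, marks the excitatory V3 neurons that arise most ventrally. None of these names is restricted to the spinal cord: Gata2, Gata3, Tal1 and Sox14 also act in GABAergic neurons of the midbrain, Gata2 and Gata3 in serotonergic neurons, and Gata2 and Tal1 in blood and endothelium.

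The oculomotor neuron (OMN) cultures came from an *Islet1*-GFP line that also carries *Phox2a* under the nestin enhancer (*NesEPhox2a*), which limits the transgene to neural progenitors, and they received the Smoothened agonist SAG at 250 nM with Fgf8 at 100 ng/ml. The spinal (SC) cultures came from an *Hb9*-GFP line without that transgene and received SAG at 500 nM with retinoic acid at 100 nM. Patterning lasted 5 days in both, and each of the 4 groups (OMN GFP+, OMN GFP−, SC GFP+, SC GFP−) held 6 samples. Line, reporter and morphogens changed together between the cultures and cannot be told apart. Each culture rests on 1 line, and the labels do not say whether replicates were separate differentiations, so p-values measure the spread between these samples only.

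Depth, estimated from the steps between low values, was 752529 to 7675428 reads per library. Replicates 1 to 4 held 752529 to 4642207 reads, and replicates 5 and 6 held 4822576 to 7675428, and no label names a batch. The study's methods name more than one sequencer and read length without saying which samples had which, so their part in differences between the replicate sets was not tested. The labeled cell types carried their defining genes: *Isl1* was 141 to 369 RPKM (reads scaled to the length of the gene model and to library depth) in OMN GFP+ and at most 1.87 in OMN GFP−, and *Mnx1*, which encodes Hb9, was 43.1 to 149 RPKM in SC GFP+. *Mnx1* reached 69.4 RPKM in SC GFP− replicate 4, while its group otherwise stayed at or under 4.72 RPKM. Its GFP+ partner held only 7.63 RPKM of *Isl1* against at least 50.4 in the other SC GFP+ samples. Both libraries therefore stand apart from their labels' groups. In SC GFP− replicate 2, 3 repeat-like gene models took 68.8% of all RPKM, so values of other genes there are scaled down.

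*Gata3*, *Sim1* and *Gata2* were read in 22, 13 and 21 of the 24 libraries, and the other members in 2 to 5. Together they took 3300 reads over all 24 libraries, of which *Gata3* held 62.1%, *Sim1* 24.3% and *Gata2* 11.8%. The other 4 genes shared 61 reads. Of all reads of the 7 genes, 62.6% lay in the SC GFP− samples of replicates 5 and 6. This share is not scaled to depth, and these libraries held 7052187 and 7095498 reads. In bulk samples, fewer cells of a type and less RNA per cell cannot be told apart. The reads carry no molecular identifiers, so limits drawn from read counts cover counting error only.

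The V0 factors were at or near 0. *Evx1* (chromosome 6, 52313498 to 52318378, + strand, GRCm38) had no read in any OMN sample, 1 read in SC GFP+ replicate 4 (0.089 RPKM) and 13 reads in SC GFP− replicate 4 (1.06 RPKM). Its exons overlap those of the antisense gene *Evx1os*, and without strand in the library the reads of the pair cannot be told apart. All *Evx1* reads thus came from the pair of spinal libraries that stand apart, which also held *Tfap2c*, an ectodermal and trophoblast factor, at 40.6 and 44.0 RPKM and *Eomes*, a primitive streak factor, at 4.19 and 3.51 RPKM. No other sample passed 17.5 RPKM of *Tfap2c* or 0.466 RPKM of *Eomes*. These companion genes were singled out after their values were seen, and their part in the *Evx1* reads was not tested.

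*Evx2* (chromosome 2, 74652991 to 74659557, − strand) had 17 reads in 5 libraries. They were 1 and 7 reads in OMN GFP+ replicates 1 and 4, 5 reads in OMN GFP− replicate 6, and 1 and 3 reads in SC GFP− replicates 2 and 4, and the highest level was 1.18 RPKM. *Evx1* and *Evx2* were read in the same library only in SC GFP− replicate 4. For a library at 0, a floor of 3 reads allows a level of up to 0.136 to 1.39 RPKM for *Evx1* and 0.093 to 0.951 RPKM for *Evx2*, depending on its depth, so low transcription was not detectable at this depth.

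The V2a gene *Sox14* (chromosome 9, 99874106 to 99876170, − strand), which encodes a repressor of the SoxB2 class, had 1 read in OMN GFP+ replicate 1 and 5 reads in SC GFP+ replicate 6 (0.315 RPKM). The other 22 libraries had none, with a floor of 0.189 to 1.93 RPKM over all libraries.

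*Tal1* (chromosome 4, 115056426 to 115071755, + strand), a bHLH partner of the GATA factors, was read in 4 libraries. It had 2 reads in OMN GFP− replicate 2, 1 read in SC GFP+ replicate 3, 13 reads in SC GFP+ replicate 6 (0.387 RPKM) and 8 reads in SC GFP− replicate 4 (0.430 RPKM). The floor of 3 reads lies at 0.089 to 0.910 RPKM. The SC GFP− samples of replicates 5 and 6, which held the most *Gata2* and *Gata3* of their group, had no *Tal1* read.

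**Figure D1:**
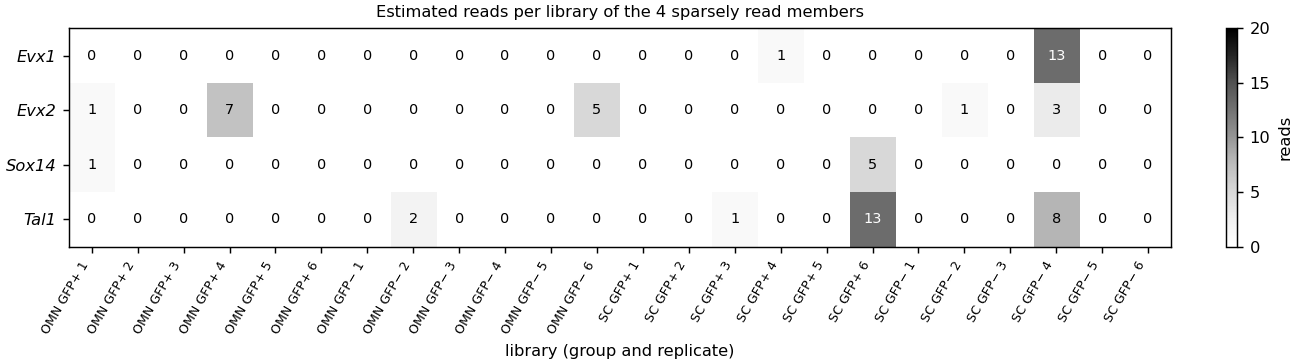
Estimated reads (cell numbers and gray shade) of *Evx1*, *Evx2*, *Sox14* and *Tal1* in each of the 24 libraries, ordered by group and replicate. Only 13 of 96 values hold a read, 6 of them hold 5 reads or more, and SC GFP− replicate 4 holds 24 of the 61 reads.

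*Gata2* (chromosome 6, 88193891 to 88207032, + strand), a zinc finger factor that acts at the start of the V2b program, had its highest group mean in OMN GFP+, whereas *Gata3* and *Sim1* had theirs in SC GFP−. In OMN GFP+ replicates 1 to 6 it was 0.599, 1.51, 1.74, 4.58, 0.290 and 0.241 RPKM. In OMN GFP− replicates 1 to 6 it was 0.064, 0.174, 0.065, 0.412, 0.115 and 0.179 RPKM. The GFP+ sample was the higher of the pair in 6 of 6 replicates, although the ranges of the groups overlapped and replicates 5 and 6 differed little. The group means were 1.49 ± 1.64 RPKM (SD, n = 6) in OMN GFP+ and 0.168 ± 0.130 RPKM (SD, n = 6) in OMN GFP−, a ratio of 8.89. Without OMN GFP+ replicate 4 the ratio was 5.21, and it was 11.8 in replicates 1 to 4 and 1.81 in replicates 5 and 6, splits made after the values were seen. Each GFP− value rests on 1 to 6 reads.

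In the spinal cultures the order of the fractions was the other way around in most pairs. *Gata2* was 0, 0, 0.107, 0.142, 0.256 and 0.555 RPKM in SC GFP+ replicates 1 to 6. In SC GFP− replicates 1 to 6 it was 0.102, 0.219, 0, 0.654, 2.84 and 2.17 RPKM. The GFP− sample was the higher in 5 of 6 pairs, and replicates 5 and 6 lay above every other spinal sample. The means were 0.177 ± 0.209 RPKM (SD, n = 6) in SC GFP+ and 0.996 ± 1.21 RPKM (SD, n = 6) in SC GFP−.

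On the log2(RPKM + 1) scale, on which the change of a gene this low is understated, the *Gata2* step from GFP− to GFP+ was 0.89 (SE 0.33) in the OMN cultures and −0.57 (SE 0.33) in the spinal ones. Neither passed the threshold in the limma fit (adjusted p = 0.131 and 0.594). The difference between these steps, tested as an interaction, was 1.46 (SE 0.47, unadjusted p = 0.00505), and it missed the threshold after adjustment over all genes (adjusted p = 0.299). With the paired fractions as blocks the OMN step kept its size and passed (0.89, adjusted p = 0.0356), and in replicates 1 to 4 alone it was 1.26 (adjusted p = 0.0304). In replicates 5 and 6 alone it was 0.14 (adjusted p = 0.812), and over 23 alternatives the adjusted p ran from 0.0304 to 0.812.

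**Figure D2:**
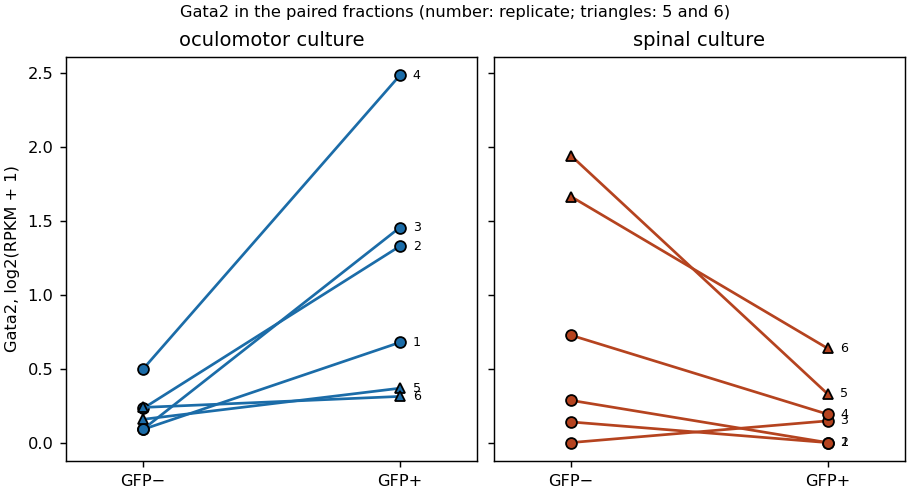
*Gata2* in log2(RPKM + 1) in the GFP− and GFP+ fractions, with lines joining samples of the same culture and replicate number. All 6 OMN lines rise toward GFP+, those of replicates 5 and 6 least, while 5 of 6 spinal lines fall.

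*Gata3* (chromosome 2, 9857078 to 9890034, − strand), which follows Gata2 in V2b neurons, was the most abundant member, with reads in 22 libraries. In OMN GFP+ replicates 1 to 6 it was 0.433, 0, 0.295, 0, 1.57 and 1.35 RPKM, and in OMN GFP− it was 1.39, 1.00, 4.30, 0.559, 1.41 and 1.46 RPKM. In SC GFP+ it was 0.538, 0.108, 0.145, 2.64, 7.09 and 4.75 RPKM, and in SC GFP− it was 1.24, 0.594, 0.668, 1.95, 17.3 and 30.9 RPKM. The GFP− sample was the higher in 5 of 6 pairs of either culture, and all groups overlapped. The means followed the order SC GFP− (8.77 ± 12.6 RPKM), SC GFP+ (2.54 ± 2.87), OMN GFP− (1.69 ± 1.33) and OMN GFP+ (0.608 ± 0.685; SD, n = 6 each), and the difference between the fractions missed the threshold in the spinal and in the OMN cultures (limma, adjusted p = 0.749 and 0.684). Without replicates 5 and 6 the mean of SC GFP− was 1.11 RPKM and that of OMN GFP− 1.81 RPKM, so that the order of the GFP− groups turned.

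*Sim1* (chromosome 10, 50894754 to 50989152, + strand) was nearly absent from the reads of OMN GFP+. The OMN GFP+ group held 2 reads in all, 1 each in replicates 1 and 6, and its highest level was 0.025 RPKM. In OMN GFP− replicates 1 to 6 it was 0, 0, 0.202, 0, 0.698 and 0.262 RPKM. In SC GFP+ it was 0.538, 0, 0.670, 0, 0.433 and 2.42 RPKM, and in SC GFP− it was 0.572, 0.480, 0, 0, 2.38 and 6.10 RPKM. At 0.677 ± 0.897 RPKM in SC GFP+ against 0.007 ± 0.011 RPKM in OMN GFP+ (SD, n = 6), 4 of the 6 spinal samples lay above every OMN GFP+ sample. The difference between the GFP+ groups was −0.60 on the log2(RPKM + 1) scale (SE 0.24, unadjusted p = 0.0268) and missed the threshold after adjustment (adjusted p = 0.402).

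**Figure D3:**
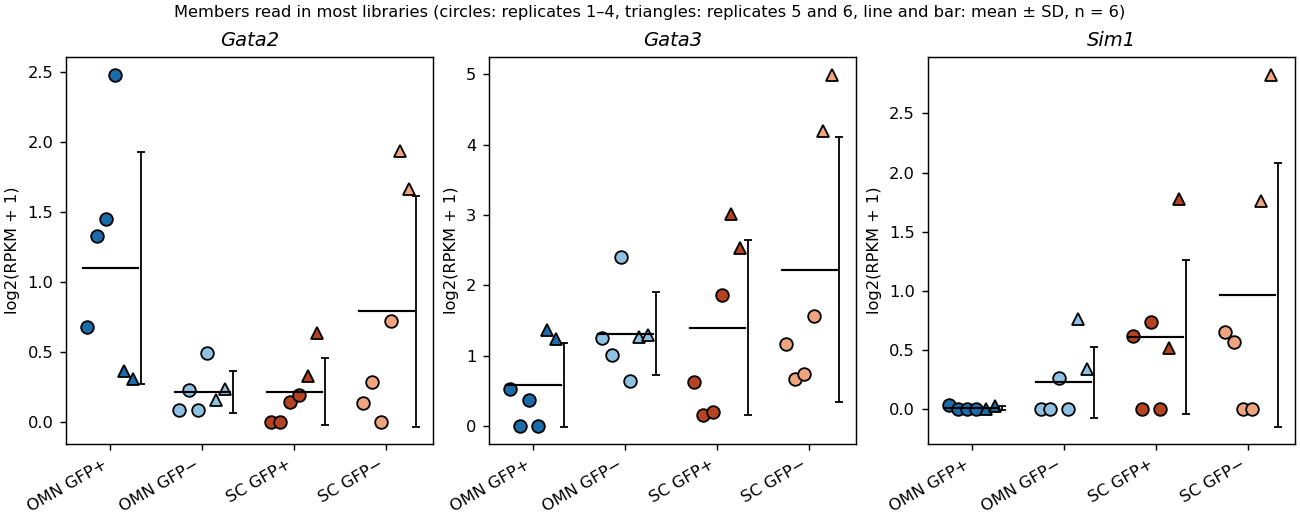
log2(RPKM + 1) of *Gata2*, *Gata3* and *Sim1* in the 24 samples by group, with the group mean (line) and SD (bar) on that scale and replicates 5 and 6 as triangles. The triangles of SC GFP− lie highest in the *Gata3* panel. For *Sim1*, SC GFP− replicate 6 lies highest, and SC GFP− replicate 5 (2.38 RPKM) lies level with SC GFP+ replicate 6 (2.42 RPKM). *Sim1* lies at or near 0 in all OMN GFP+ samples.

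*Gata2*, *Gata3* and *Sim1* were high in the same pair of libraries, SC GFP− replicates 5 and 6, which held 49.2% of all *Gata2* reads, 66.3% of *Gata3* reads and 64.5% of *Sim1* reads. These shares are of reads not scaled to depth, and the pair was deeply read (7052187 and 7095498 reads). In RPKM the highest *Gata2* value was 4.58 in OMN GFP+ replicate 4, against 2.84 and 2.17 in this pair. As a description over the 24 samples, Pearson's r of log2(RPKM + 1) was 0.77 for *Gata3* with *Sim1* (Spearman's rho 0.43), 0.33 for *Gata2* with *Sim1* (rho 0.03) and 0.24 for *Gata2* with *Gata3* (rho 0.11). Without that pair of libraries r was 0.39, −0.19 and −0.35. The likeness of *Gata3* and *Sim1* was thus weaker without this pair, and the r values of *Gata2* turned negative. By rank, *Gata2* was little like either gene over the 24 samples. Depth differs between the replicate sets as well. Within replicates 1 to 4, r was −0.01 for *Gata3* with *Sim1*, −0.37 for *Gata2* with *Sim1* and −0.45 for *Gata2* with *Gata3*. Within replicates 5 and 6, r was 0.87, 0.81 and 0.89 in the same order.

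In that same pair of libraries *Slc17a8*, which encodes the vesicular glutamate transporter VGLUT3, was 6.79 and 8.0 RPKM. The remaining SC GFP− samples did not exceed 0.375 RPKM, and the highest value outside this group was 1.49 RPKM. The inhibitory genes were low there: *Gad1* was 0.019 and 0 RPKM and *Slc32a1*, the vesicular transporter of GABA and glycine, was 0.101 and 0 RPKM. *Slc17a6*, the glutamate transporter usual in V2a and V3 neurons, was 0.236 and 0 RPKM. A serotonergic factor, *Fev*, was 1.75 and 1.48 RPKM against at most 0.365 RPKM in any other sample, while *Tph2*, which makes serotonin, was 0.246 and 0 RPKM. *Fev* and *Tph2* were named after their values were seen.

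Summed over each list of other cell types known for these genes, SC GFP− replicates 5 and 6 lay at 6.77 to 9.39 RPKM for 5 serotonergic genes, against 8.03 to 29.7 in replicates 1 to 4. Most of that sum was *Ddc* (3.43 to 6.98 against 4.75 to 29.3 RPKM), and the other 4 genes, split off after their values were seen, summed to 2.41 to 3.33 against 0 to 3.28 RPKM. For 9 blood and endothelial genes they lay at 5.21 to 11.1 RPKM against 0.93 to 11.03, and the endothelial genes went both ways: *Cdh5* was 0.607 and 4.22 RPKM against at most 0.261, *Tek* 1.26 and 4.82 against at most 0.599, *Pecam1* 0.159 and 0.204 against up to 9.29, and *Kdr* 0.141 and 0.016 against up to 0.394. For 8 genes of trophectoderm and surface ectoderm they lay at 110.1 to 142.6 RPKM against 52.2 to 184.9, and for 6 genes of paraxial mesoderm and hypothalamus at 0 to 3.88 RPKM against 4.12 to 30.5. For 5 neuronal genes they lay at 79.8 to 165.2 RPKM against 27.7 to 105.1. *Gata1*, the blood factor, was 0.174 and 0 RPKM and the trophoblast factor *Hand1* was at 0 in both. The part of these cell types in the levels of the members was not tested.

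To show what lies upstream of the members that were high together, the bases before the annotated start that hold no exon of the gene are printed for *Gata2*, *Gata3* and *Sim1*, 5′ to 3′ on the gene's strand, from RefSeq on GRCm38.p6. Capitals mark matches to CANNTG, the E-box bound by bHLH factors such as Tal1, which reads the same on both strands, or to GATA preceded by A or T and followed by A or G, on either strand. The windows are chr6:88193641-88193890 (+ strand) for *Gata2*, chr2:9878601-9878850 (− strand) for *Gata3* and chr10:50895401-50895472 (+ strand) for *Sim1*. The *Gata2* window lies before the gene. The *Gata3* window lies within longer *Gata3* transcripts and overlaps an exon of the noncoding gene *Gm13256* on the opposite strand. In GENCODE M21 *Sim1* starts at 50894754, before its window, so the printed *Sim1* bases lie within the gene and not upstream of it. They are cut where an exon of *Sim1* begins.
Gata2: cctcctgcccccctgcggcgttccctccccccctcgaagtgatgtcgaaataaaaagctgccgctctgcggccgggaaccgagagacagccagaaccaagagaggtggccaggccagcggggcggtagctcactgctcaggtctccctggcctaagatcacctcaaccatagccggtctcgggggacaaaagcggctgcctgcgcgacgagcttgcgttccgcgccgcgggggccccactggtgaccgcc
Gata3: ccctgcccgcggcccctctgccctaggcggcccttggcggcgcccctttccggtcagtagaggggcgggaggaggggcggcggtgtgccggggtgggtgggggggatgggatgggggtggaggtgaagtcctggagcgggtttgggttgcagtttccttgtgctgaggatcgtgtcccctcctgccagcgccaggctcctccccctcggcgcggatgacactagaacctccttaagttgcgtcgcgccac
Sim1: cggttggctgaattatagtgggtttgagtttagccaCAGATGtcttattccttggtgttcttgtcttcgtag
No GATA match lay in the 250 bases before any of these starts or before a second *Gata2* start. The 250 bases before the *Sim1* start used here held 2 E-boxes, of which the first is printed. Of 32851 windows of this length in the RefSeq table, 26.5% held a GATA match and 66.2% an E-box. The *Gata2* window held 22 CpG dinucleotides, the *Gata3* window 19 and the full *Sim1* window 11, against a median of 6 over all windows. A match is a description of the letters only.

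Tested across all genes with limma, no member passed an adjusted p of 0.05 in any of the 5 comparisons. Between OMN GFP+ and SC GFP+, 0 of 6 tested members were called, where 116 of 19240 genes (0.603%) were, and *Evx1* was not tested because 1 sample of the 12 had a read. At an unadjusted p under 0.05, 2 members (*Gata2* and *Sim1*) and 1951 genes (10.1%) passed. Between OMN GFP− and SC GFP−, 0 of 7 members were called, beside 0.96% of genes, and none had an unadjusted p under 0.05, beside 2500 genes (11.3%).

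Between the OMN fractions 0 of 7 members were called, beside 6.15% of 22179 genes, and 1 (*Gata2*) passed unadjusted, beside 4015 genes (18.1%). Between the spinal fractions 0 of 7 were called, beside 1.23% of genes, and none passed unadjusted, beside 2315 genes (10.4%). In the interaction 0 of 7 were called, beside 0.32% of genes, and 1 (*Gata2*) passed unadjusted, beside 1582 genes (7.1%). A count of 0 called among 7 is near the shares of genes called. Without both spinal samples of replicate 4, the pair that stands apart, no member was called in any comparison either.

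*Gata3* was lower in OMN than in spinal samples by −0.81 (SE 0.52) among the GFP+ samples and −0.91 (SE 0.67) among the GFP− samples on the log2(RPKM + 1) scale, with adjusted p = 0.633 and 0.635 from limma. The direction among the GFP− samples turned in replicates 1 to 4 alone (0.29, adjusted p = 0.894). In replicates 5 and 6 alone it was −3.31 (adjusted p = 0.0126), and *Gata2* was −1.60 (adjusted p = 0.0242), in a fit of 2 samples a group that was added after these values were seen and that cannot count as independent evidence. *Sim1* was −0.74 (SE 0.36, adjusted p = 0.449) in the same comparison. The *Sim1* difference between the spinal fractions, −0.36 (SE 0.36), became 0.01 without SC GFP− replicate 6.

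**Figure D4:**
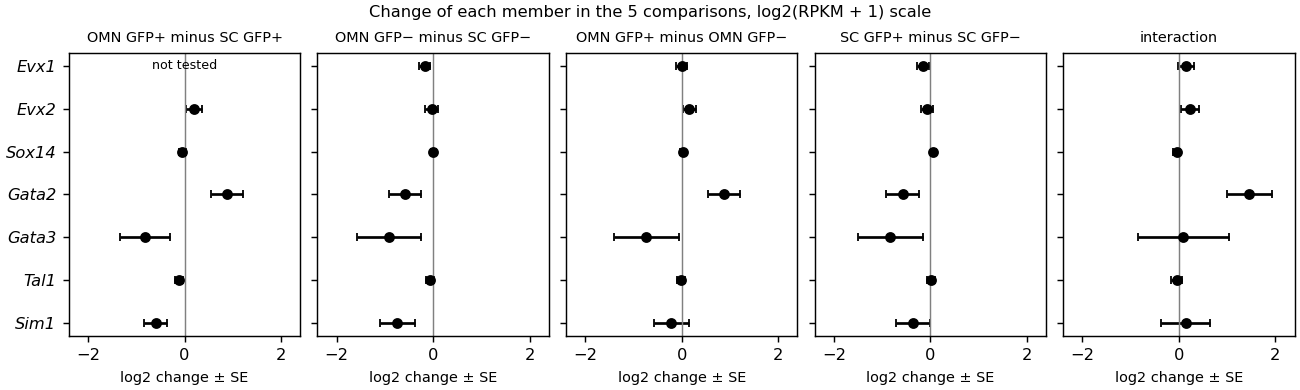
Fitted change of each member with its standard error on the log2(RPKM + 1) scale, 1 panel for each of the 5 comparisons. The largest is the *Gata2* interaction at 1.46, and no change passed an adjusted p of 0.05.

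The other genes of the V0, V1, V2 and V3 lists, 32 in number, were not uniformly low. Between OMN GFP+ and SC GFP+, 2 were higher and 2 lower among 31 tested, where 0.603% of all genes tested were called. The median change of the 31 was −0.09 beside −0.04 over all genes. Between the OMN fractions 3 were higher in GFP+ and 2 lower among 32 (median −0.03 beside 0), beside 6.15% of all genes called. The spinal fractions had 3 higher in GFP+ and none lower among 32, beside 1.23% of all genes. Of the 32, none was called between the GFP− groups, beside 0.96% of all genes. The genes that passed are shared with other cells: *Lhx3* and *Lhx4* are LIM homeodomain genes of motor neurons as well as of V2 neurons, and *Nkx6-1* marks motor neuron progenitors.

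*Lmo1*, which encodes a LIM-only cofactor placed on the V2b list beside *Gata2* and *Gata3*, was the clearest of them. It was 39.3 to 154 RPKM in OMN GFP+ and at most 9.89 RPKM in every other sample, with log2 changes of 4.84 against OMN GFP− (SE 0.52, adjusted p = 2e-06 by limma) and 3.84 against SC GFP+ (SE 0.55, adjusted p = 0.00502). *Tal2*, a bHLH gene of midbrain GABAergic neurons, went the other way and was 28.0 and 29.5 RPKM in OMN GFP− replicates 5 and 6, 0.352 to 2.20 RPKM in replicates 1 to 4 and at most 0.457 RPKM in OMN GFP+ (log2 change −2.20, adjusted p = 0.0174). The same pair of OMN GFP− samples held 28.5 and 33.2 RPKM of *En1*, a gene of V1 neurons and of the midbrain, while their *Gata3*, at 1.41 and 1.46 RPKM, was near the group's median of 1.40 RPKM.

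On the V1, V2 and V2a lists, *Lhx1* was 4.43 to 22.8 RPKM in SC GFP+ and at most 0.212 RPKM in the OMN samples, and *Lhx3* was 4.12 to 84.4 RPKM against at most 0.243 RPKM. Both were lower in OMN GFP+ than in SC GFP+ (adjusted p = 0.00117 and 0.00833 by limma). *Lhx4* was higher in the GFP+ fraction of both cultures, with log2 changes of 4.04 and 2.99 (adjusted p = 1.3e-05 and 0.00209). *Nkx6-1* was higher (log2 change 3.09, adjusted p = 0.0249) and *Sox21* lower (−2.16, adjusted p = 0.00214) in OMN GFP+ than in OMN GFP−, and *Nkx6-2* was higher in OMN GFP+ than in SC GFP+ (2.89, adjusted p = 0.0114). Of the V3 list, *Nkx2-2* and *Nkx2-9*, which lie upstream of *Sim1* in the V3 progenitor domain, were read in all groups, *Nkx2-2* at 0.737 to 20.5 RPKM in SC GFP−, and neither was called.

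**Figure D5:**
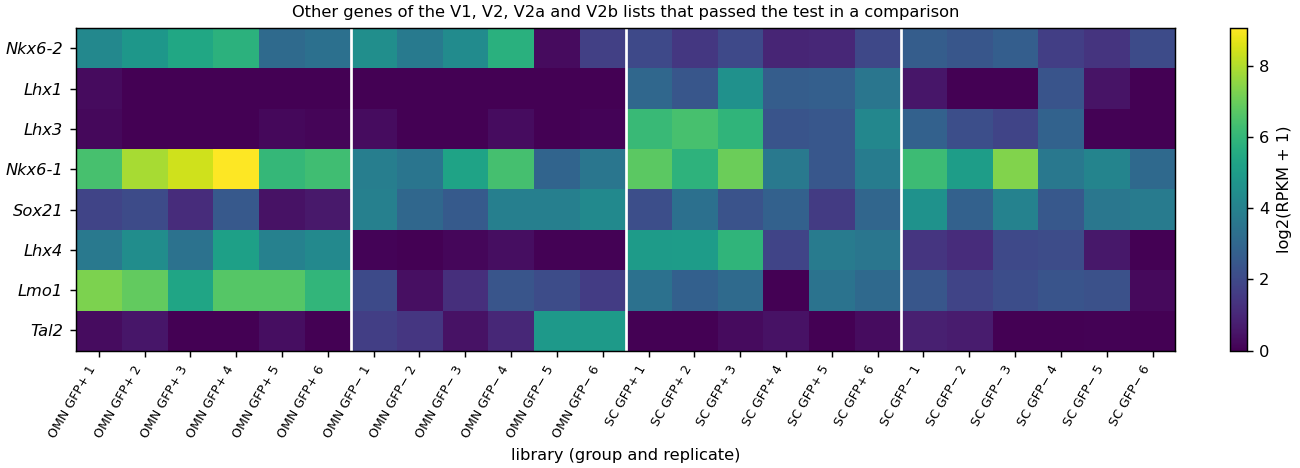
log2(RPKM + 1) (color) of the 8 other genes of the V1, V2, V2a and V2b lists that passed the test in a comparison, in the 24 libraries. The genes share 1 color scale, on which *Nkx6-1* reaches the highest value (537 RPKM in OMN GFP+ replicate 4). *Lmo1* is bright in all 6 OMN GFP+ samples. *Lhx1* and *Lhx3* are brighter in SC GFP+ than in the OMN samples, and *Tal2* is brightest in OMN GFP− replicates 5 and 6.

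None of the 5 inhibitory and 3 excitatory transmitter genes was called in a comparison. Their summed levels were at most 2.94 RPKM (inhibitory) and 1.52 RPKM (excitatory) in OMN GFP+, and at most 6.17 and 2.07 RPKM in SC GFP+. In SC GFP− the excitatory sum was 0 to 1.57 RPKM in replicates 1 to 4 and 7.05 to 8.0 RPKM in replicates 5 and 6, where *Slc17a8* made up nearly all of it. Motor neuron genes on the same scale summed to 379 to 822 RPKM in OMN GFP+ and 61.4 to 380 RPKM in SC GFP+.

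Among 11950 genes with a mean of at least 1 RPKM, those whose log2(RPKM + 1) was most like a member's over the 24 samples were listed by Pearson's r, as a description. For *Gata3* they were *Fam81a* (r = 0.90, rho 0.84), *Dtwd2* (0.86, rho 0.91) and *Gm9112* (0.82, rho 0.73). For *Sim1* they were *Ntf3*, the gene of neurotrophin-3 (0.88, rho 0.87), *Camk2d* (0.86, rho 0.68) and *Crim1* (0.84, rho 0.66). For *Gata2* they were *Fdxacb1* (0.74, rho 0.54), *Fam63b* (0.70, rho 0.56) and *Nkapl* (0.69, rho 0.66). Without SC GFP− replicates 5 and 6, r was 0.83 for *Fam81a* with *Gata3* and 0.90 for *Ntf3* with *Sim1*, so these did not rest on that pair of libraries.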

How the data were processed

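The authors sorted GFP+ and GFP− cells, prepared SMART-seq2 libraries with Tn5, aligned reads to GRCm38 (mm10) with HISAT2 2.0.3 and deposited 1 table of RPKM values from rpkmforgenes for 22889 entries; libraries do not keep strand. Their differential tests used DESeq2 1.12.4 on counts, which were not used here. Samples were grouped by their titles (6 each).

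Estimated reads per library were recovered from the spacing of low RPKM values of 5911 single-transcript genes, and each member's RPKM was converted back to reads, all of them whole. The model lengths of *Gata2*, *Gata3*, *Tal1* and *Sim1* equal no GENCODE M21 transcript. A library at 0 was given a floor of 3 reads.

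Since RPKM are not counts, limma 3.58.1 (R 4.3.3) with a trended prior was fitted to log2(RPKM + 1) for genes above 0 in at least 2 samples, with Benjamini-Hochberg adjustment over all genes and a threshold of 0.05. OMN GFP+ against SC GFP+ used these 12 samples, and the other comparisons all 24. The code was tested on simulated data. Fractions of the same culture and number deviated together (r 0.38 to 0.73 for OMN and 0.42 to 0.66 for spinal samples over 11952 genes) and were treated as pairs in the blocked fit. Across the cultures r ran from −0.17 to 0.71, highest for replicates 5 and 6, so not every number paired the cultures.

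Named are all 7 members; genes of the V0 to V3, transmitter and motor neuron lists that passed a test or exceeded 1 RPKM in a group's mean; and the 3 genes most like each member read in at least 12 samples. Genes named outside this rule are marked in the text, or serve as checks of the cell types. The members and lists were chosen with earlier results of these data known. Alternatives covered the offset, filters, scaling, weights, blocks, replicate sets, samples fitted and each sample left out. Promoter sequences are from RefSeq, and protein sequences were not used here.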

Additional observations from a re-analysis of the deposited data

Results flagged for a closer look

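In 13 of the 22 groups of 6 samples in which a member was read at all, 1 sample lay far from the other 5 in RPKM by Dixon's criterion. Chance flags about 1 in 20 groups of normally spread values, which is no measure here: in 7 of the 13 groups a single library held all reads, so that it is far from the rest by construction. For the sparsely read genes the far sample was the only one with reads or the one with the most reads. These were *Evx1* in SC GFP+ replicate 4 (0.089 RPKM) and SC GFP− replicate 4 (1.06 RPKM), *Evx2* in OMN GFP+ replicate 4 (1.18 RPKM) and OMN GFP− replicate 6 (0.192 RPKM), and *Sox14* in OMN GFP+ replicate 1 (0.104 RPKM) and SC GFP+ replicate 6 (0.315 RPKM). *Tal1* stood out in OMN GFP− replicate 2 (0.107 RPKM), SC GFP+ replicate 6 (0.387 RPKM) and SC GFP− replicate 4 (0.430 RPKM).

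Among the genes read in more libraries, *Gata2* was high in replicate 4 of OMN GFP+ (4.58 RPKM) and of OMN GFP− (0.412 RPKM), the fractions of the same culture and number. The OMN GFP− value rests on 3 reads and equals the floor of its library, while OMN GFP− replicate 6 had 6 reads at 0.179 RPKM. *Gata3* was high in OMN GFP− replicate 3 (4.30 RPKM) and *Sim1* in SC GFP+ replicate 6 (2.42 RPKM). The far libraries of *Sox14*, *Tal1* and *Sim1* in SC GFP+ were the same library, replicate 6.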

How the results depend on the processing

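The count of members called stayed at 0 in every comparison except in 4 cases. Between the OMN fractions it was 1 of 7 tested with the paired replicate block, beside 3644 of 22179 genes. In replicates 1 to 4 alone it was 1 of 6 there, beside 476 of 20942 genes (*Gata2* in each). In replicates 5 and 6 alone, a setting chosen after seeing the data, 3 members were tested. The count was then 2 between the GFP− groups, beside 299 of 18652 genes, and 1 between the spinal fractions, beside 300 of 18652. The count of members called was 0 whichever sample was left out. The block changed no other member's call, and moved the genes called between the OMN fractions from 1364 to 3644.

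Of 814 alternative changes of single members, 782 kept direction and call, 27 turned and 5 were newly called. A change that rounds to 0 could not be counted as turned. This held for *Evx1* between the OMN fractions and *Sox14* between the GFP− groups, where no sample had a read. Turned in replicates 1 to 4 alone were *Gata3* between the GFP− groups (0.29), *Sim1* (0.04) and *Tal1* (−0.08) between the spinal fractions, and *Gata3* (−0.78), *Sim1* (−0.09) and *Tal1* (0.05) in the interaction. With an offset of 0.1 RPKM the interaction was −0.52 for *Gata3* and −0.45 for *Sim1*. In replicates 5 and 6 alone *Gata2* turned between the GFP+ groups (−0.14) and *Gata3* between the OMN fractions (0.01). With array weights *Evx2* turned between the GFP− groups (0.03), as did *Tal1* without both spinal samples of number 4 (0.02) and without SC GFP− replicate 4 (0.02). Without 1 sample the *Gata3* interaction, 0.10 with all, ranged from −0.46 (without SC GFP− replicate 6) to 0.42 (without SC GFP+ replicate 5) and turned in 8 cases. The *Sim1* interaction ranged from −0.23 (without SC GFP− replicate 6; −0.02 without replicate 5) to 0.37, and its spinal fraction change from −0.59 to 0.01 (without SC GFP− replicate 6). *Tal1* turned without SC GFP+ replicate 6 between the spinal fractions (range −0.05 to 0.11) and in the interaction (−0.13 to 0.03), and *Evx2* between the OMN fractions without OMN GFP+ replicate 4 (−0.03 to 0.20). The cause was not tested.

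Samples left out and replicates 5 and 6 alone aside, the genes called moved over the alternatives from 30 to 342 (116 as reported) between the GFP+ groups, 39 to 650 (213) between the GFP− groups, 476 to 3795 (1364) between the OMN fractions, 1 to 649 (272) between the spinal fractions and 10 to 453 (71) in the interaction. In replicates 5 and 6 alone they were 13, 299, 884, 300 and 84 in the same order. By rank correlation 0, 1 and 1 of the 3 genes most like *Gata2*, *Gata3* and *Sim1* remained among the first 3. Reads of at most 13 in any library limit *Evx1*, *Evx2*, *Sox14* and *Tal1*.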
